A study of Homo sapiens with 2 samples.

Results

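The 7SK ribonucleoprotein and the kinases of transcription elongation were described here through 10 genes: HEXIM1, HEXIM2, LARP7 and MEPCE for the proteins of the particle, CDK9, CCNT1 and CCNT2 for the kinase P-TEFb, and CCNK, CDK12 and CDK13 for the related cyclin K kinases. They were taken by gene name, and all 10 were found among the 60623 named genes of the count table. RNA-seq was available for HCT116, an established human colon cancer line of epithelial origin, labelled wild type. One culture (siControl) received a non-specific siRNA and the other (siKAT7) an siRNA against KAT7, both with a lipid reagent, and the time after transfection was not given in the sources used here. KAT7, also called HBO1, is a histone acetyltransferase, and the study asked what lowering it does to transcription. Each group had 1 library, so no difference was set against the spread between cultures, and every interval below covers counting error only.

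P-TEFb is the kinase CDK9 bound to a cyclin T, and it phosphorylates RNA polymerase II and its pausing factors so that a paused polymerase can go on to elongate. A large part of cellular P-TEFb is held inactive on the noncoding 7SK RNA. In that particle MEPCE caps the 5' end of the RNA, LARP7 binds its 3' end, and a HEXIM protein docked on the RNA inhibits CDK9. CDK12 and CDK13 pair with cyclin K and act later along the gene.

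The 7SK RNA is shown because the proteins of the particle assemble on it and because its own count differed more between the libraries than that of any of the 10 genes. RN7SK in GENCODE 29 is 328 bases long, and its bases 1 to 120 are given as DNA, 5' to 3', with each GATC in capitals. HEXIM proteins are known to recognise GAUC repeats in the 5' hairpin of 7SK, and the 3 matches in the whole RNA start at positions 12, 41 and 63 counted from the 5' end.
RN7SK: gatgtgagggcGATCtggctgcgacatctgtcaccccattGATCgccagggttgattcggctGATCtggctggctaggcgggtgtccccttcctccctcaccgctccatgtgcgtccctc

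The neighbouring genes HEXIM1 and HEXIM2 encode inhibitors that can each hold P-TEFb, and the 250 bases before a start site of each are shown because their levels per kilobase were compared within each library. They come from RefSeq on GRCh38.p14, both on the forward strand, at chr17:45148225-45148474 for HEXIM1 and at chr17:45161625-45161874 for the second listed start of HEXIM2. Capitals mark the TATA box TATAAA, the CAAT box CCAAT and the GC box GGGCGG on either strand, and no marked matches overlap. The window before the first listed start of HEXIM2, at chr17:45159924-45160173, is not shown and held none of these motifs.
HEXIM1: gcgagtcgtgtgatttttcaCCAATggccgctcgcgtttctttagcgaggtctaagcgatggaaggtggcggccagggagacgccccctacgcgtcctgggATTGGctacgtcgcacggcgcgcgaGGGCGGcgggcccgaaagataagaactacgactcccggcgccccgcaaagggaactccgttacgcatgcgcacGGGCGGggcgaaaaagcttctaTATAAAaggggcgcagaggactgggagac
HEXIM2: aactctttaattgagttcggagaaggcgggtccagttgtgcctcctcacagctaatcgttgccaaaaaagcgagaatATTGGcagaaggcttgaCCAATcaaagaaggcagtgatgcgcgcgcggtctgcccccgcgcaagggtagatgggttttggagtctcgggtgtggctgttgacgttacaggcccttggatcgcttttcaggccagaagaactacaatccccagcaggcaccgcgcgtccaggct
All 10 genes matched this RefSeq table, with 16 start sites in total. The HEXIM1 window was the 1 of 16 that held TATAAA, at position -29 from the start, and 10.7% of 35116 windows of all genes held it on either strand. CCAAT stood in 7 of the 16 windows (32% of all windows) and GGGCGG in 10 (42.6%). These matches describe the letters and not bound sites.

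Library totals over named genes were 23450326 (siControl) and 23533134 (siKAT7) expected counts, each rounded before summing. KAT7 itself had 18.2 CPM (counts scaled to the library size, here with TMM factors) in siControl against 12.7 in siKAT7, a log2 ratio of -0.52 (95% counting interval -0.74 to -0.31), so 69.6% of its transcript level remained. Of 10 colon epithelial markers 6 reached 1 CPM, KRT8, KRT19 and EPCAM among them, with summed levels of 11732 and 12412 CPM, whereas CDX1 and LGR5 had 0 counts. The defining markers PTPRC (blood), PECAM1 (endothelium) and ALB (liver) had 0 counts in both libraries, which allows up to 0.123 and 0.132 CPM at 3 counts. In a bulk library, fewer cells that express a gene and less RNA per cell cannot be told apart.

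None of the 10 genes was 1.5-fold higher or lower in siKAT7 with an interval that excluded 0, the rule used here to call a gene. KAT7, the target of the siRNA, was not called by this rule either with TMM factors, at a log2 ratio of -0.52. Under total-count scaling KAT7 was called lower, at -0.63 (-0.85 to -0.41). Over all 13217 genes whose mean reached 1 CPM, 7.83% were called, 3.92% as higher and 3.91% as lower, so 0 of 10 is close to that background. Total-count scaling moved this split from 518 higher and 517 lower genes to 355 (2.68%) and 843 (6.37%) of 13226, and left 0 of the 10 called. Log2 ratios of siKAT7 over siControl ran from -0.45 for LARP7 to 0.38 for HEXIM2 and had a median of 0.02, against -0.0048 over all genes. Scaled by total count, the medians were -0.08 for the 10 and -0.11 over all genes. Of the 10 genes, 8 had ratios under 0.2 in size on the log2 scale. All 10 lay inside the central 95% of the log2 ratios of genes within 1.5-fold of their own mean CPM. KAT7 also lay inside its own such range, which ran from -0.54 to 0.51, so this range does not single out the siRNA target. Intervals excluded 0 for 4 genes above it (HEXIM1, HEXIM2, MEPCE and CDK9) and 1 below (LARP7), or 50% of the 10. Over all genes the interval lay above 0 for 23.0% and below it for 22.0%, or 45.0% together. Under total-count scaling the interval lay above 0 for 1 of the 10 (HEXIM2) and below it for 3 (LARP7, CCNK and CDK12), against 13.3% and 35.6% of all genes under the same scaling.

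**Figure D1:**
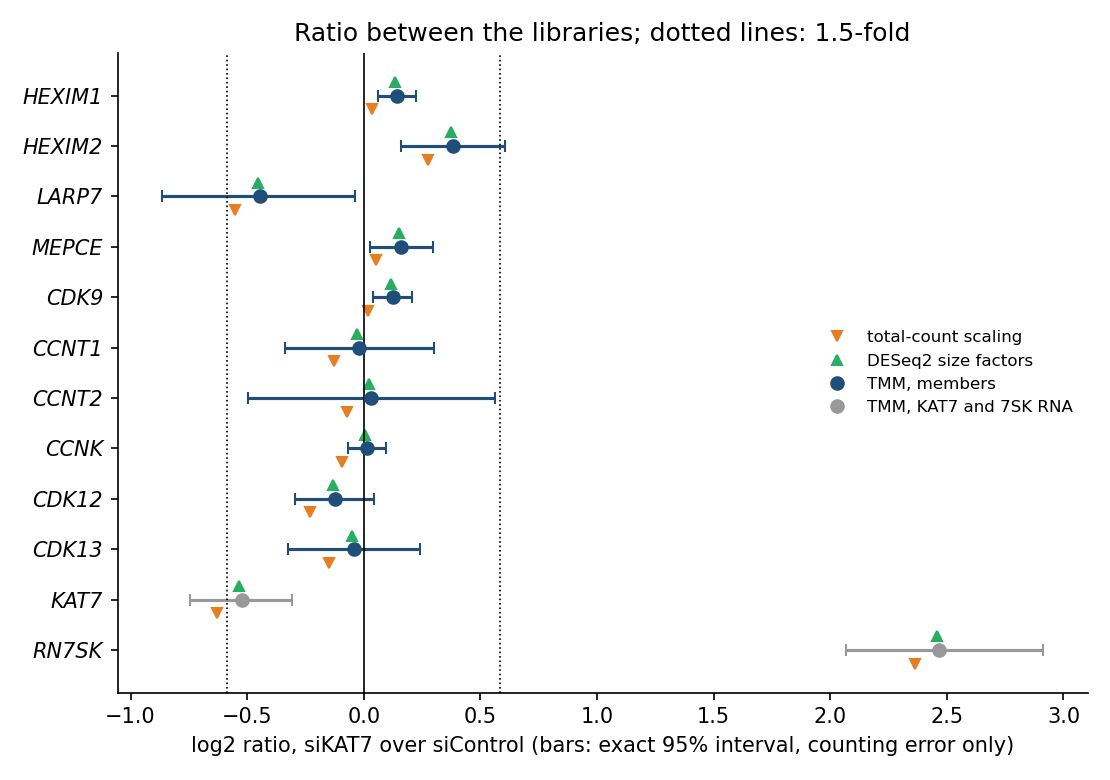
Log2 ratio of siKAT7 over siControl for the 10 genes (dark points, TMM scaling) and for KAT7 and the 7SK RNA (grey points), with exact 95% counting intervals, and the same ratios under total-count scaling (down triangles) and DESeq2 size factors (up triangles). The 10 genes sit between -0.45 and 0.38, within the dotted 1.5-fold lines, while RN7SK sits at 2.47.

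HEXIM1, the main inhibitor subunit, had 2351 counts in siControl against 2419 in siKAT7, which is 96.6 and 107 CPM. Its log2 ratio was 0.14 (0.06 to 0.23), or 0.04 (-0.05 to 0.12) under total-count scaling. The antisense model that overlaps it had 0 counts. The smaller paralogue HEXIM2 had 307 and 373 counts, or 12.6 and 16.4 CPM, and the highest ratio of the 10, 0.38 (0.16 to 0.61). In both genes the siKAT7 value was the higher one, and 5.64% of the 2324 genes within 1.5-fold of the level of HEXIM2 had a higher ratio than it.

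MEPCE, the methyltransferase that caps 7SK, had 884.94 expected counts in siControl against 922.30 in siKAT7, which is 36.4 and 40.7 CPM, with a log2 ratio of 0.16 (0.03 to 0.30), or 0.05 (-0.08 to 0.19) under total-count scaling. LARP7, the La-related protein that stabilises 7SK, had 123 and 84 counts, or 5.05 and 3.70 CPM. It was the lowest of the 10, at 73.4% of the siControl level (log2 ratio -0.45, interval -0.87 to -0.04). Among 2010 genes of like level, 13.1% had a lower ratio than LARP7. With upper-quartile factors its interval reached 0.0067, so that it then included 0. The opposite-strand gene ZGRF1 and an antisense model overlap LARP7, and with their counts added the totals were 155 and 115 and the log2 ratio -0.33. The strand setting of the counting was not given in the sources used here, so reads of LARP7 and its opposite-strand partners may not be separable.

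CDK9, the catalytic subunit of P-TEFb, had 2312 counts in siControl against 2348 in siKAT7, which is 95 and 104 CPM, with a log2 ratio of 0.12 (0.04 to 0.21), or 0.02 (-0.07 to 0.10) under total-count scaling. Its regulatory partner CCNT1 (cyclin T1) had 174 and 160 counts, or 7.15 and 7.06 CPM, and a log2 ratio of -0.02 (-0.34 to 0.30) that was 0.02 with upper-quartile factors. CCNT2 (cyclin T2), the alternative partner, had 64 and 61 counts and a log2 ratio of 0.03 (-0.50 to 0.56), or -0.07 under total-count scaling. Its antisense neighbour CCNT2-AS1 had 16 and 23 counts, and both models summed gave 0.17. The kinase was thus measured far more closely than its cyclins. At the depth of CCNT2 the counting interval allowed a difference of up to 0.56 upwards or 0.50 downwards.

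CCNK (cyclin K), the shared partner of CDK12 and CDK13, had 2521.74 expected counts in siControl against 2373.07 in siKAT7, which is 104 and 105 CPM. Its log2 ratio of 0.01 (-0.07 to 0.10) was the nearest to 0 of the 10 and turned to -0.09 (-0.17 to -0.01) under total-count scaling. The GENCODE model of CCNK overlaps CCDC85C on the opposite strand, which had 2450.81 and 2103.87 expected counts, and the division of reads between them is uncertain. Summed with every overlapping model, CCNK had a log2 ratio of -0.04. CDK12 had 627 and 536 counts, or 25.8 and 23.6 CPM, with a log2 ratio of -0.12 (-0.29 to 0.04), and -0.23 (-0.40 to -0.06) under total-count scaling. CDK13 had 222 and 201 counts, or 9.12 and 8.86 CPM, with a log2 ratio of -0.04 (-0.32 to 0.24) that was 0.0016 with upper-quartile factors. Of this trio only CDK12 had a negative ratio under all 5 scalings tried.

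**Figure D2:**
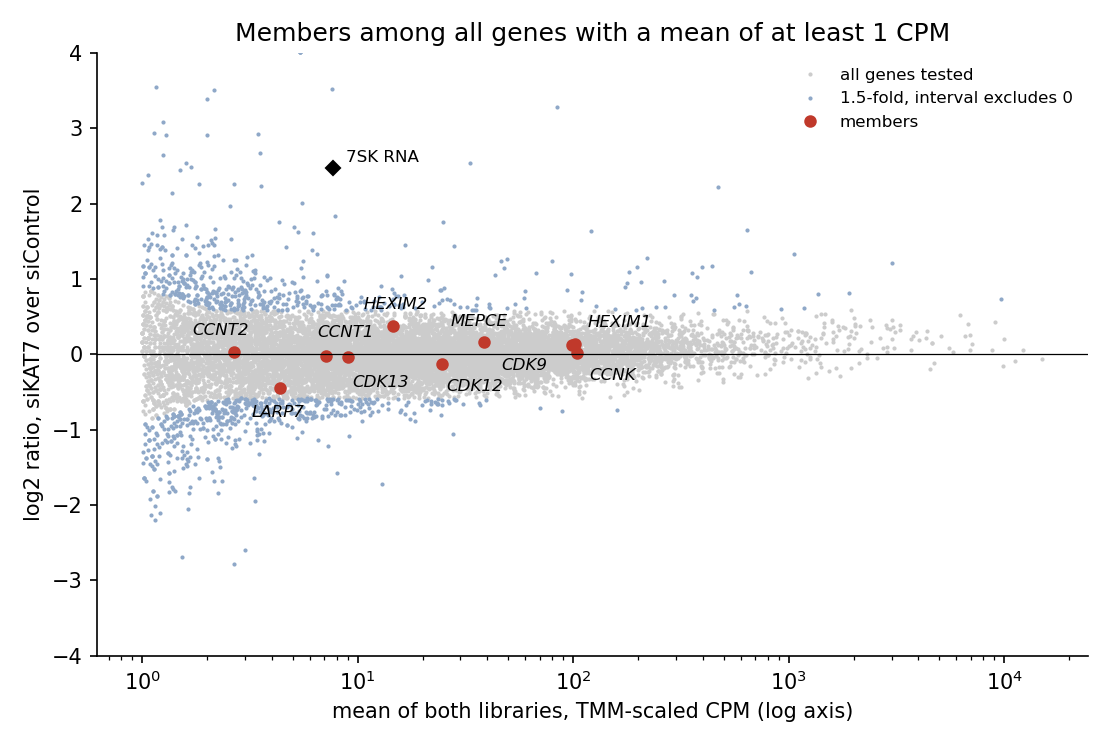
Log2 ratio of siKAT7 over siControl against the mean level in CPM (log axis) for the 13217 genes whose mean reached 1 CPM, with the 10 genes in red, called genes in blue and the 7SK RNA as a diamond. The vertical axis stops at 4 in size, beyond which 15 genes lie. The 10 red points stay within the grey band of genes that were not called, at mean levels from that of CCNT2 (2.63 and 2.69 CPM) to that of CCNK (104 and 105 CPM).

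Levels were compared between genes only per kilobase of the gene length in the file (RPKM on the TMM scale). The 10 genes took the same order in both libraries. CDK9 was highest, at 38.3 RPKM in siControl and 41.7 in siKAT7, followed by CCNK (29.4 and 29.7), HEXIM1 (26.8 and 29.6), MEPCE (12.9 and 14.4) and HEXIM2 (10.1 and 13.2). CDK12 (3.11 and 2.85), LARP7 (2.17 and 1.59), CCNT1 (1.05 and 1.04), CDK13 (0.958 and 0.931) and CCNT2 (0.380 and 0.389) were lower. CDK9 transcripts per kilobase were thus many times those of either cyclin T, and the highest and lowest gene differed by 101-fold in siControl and 107-fold in siKAT7. CCNT1 and CDK13 did not differ beyond counting error in either library. In siKAT7 the same held for CCNK against HEXIM1 (ratio 1.00, interval 0.947 to 1.06) and for MEPCE against HEXIM2 (1.09, 0.967 to 1.23), both of which did differ in siControl. All other neighbours in the order differed beyond counting error in both libraries.

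**Figure D3:**
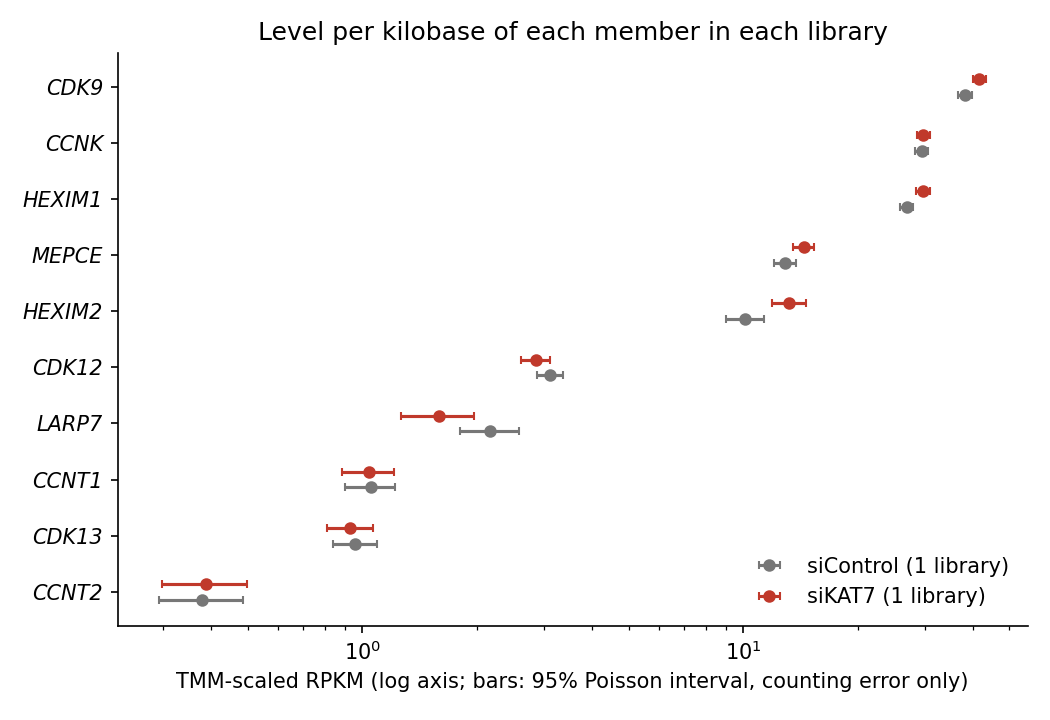
Level of each gene per kilobase (TMM-scaled RPKM, log axis) in the siControl library (grey) and the siKAT7 library (red), with 95% Poisson intervals. The order from CDK9 to CCNT2 was the same in both libraries, and the change of library moved each gene far less than the distance from the top of the order to its bottom.

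Ratios between paralogues within a library do not depend on how the libraries are scaled. HEXIM2 supplied 11.6% (exact binomial interval 10.4% to 12.8%) of the counts of the HEXIM pair in siControl and 13.4% (12.1% to 14.7%) in siKAT7. The HEXIM2 to HEXIM1 ratio was 1.18-fold higher in siKAT7, with an exact interval of 1.00 to 1.39 whose lower end lay at 0.0025 on the log2 scale. Per kilobase, HEXIM1 exceeded HEXIM2 by 2.65-fold in siControl and 2.24-fold in siKAT7. CCNT2 supplied 26.9% (21.4% to 33.0%) of the cyclin T counts in siControl and 27.6% (21.8% to 34.0%) in siKAT7, and CDK13 supplied 26.1% (23.2% to 29.2%) and 27.3% (24.1% to 30.6%) of the CDK12 and CDK13 counts. For these pairs the log2 change of the ratio was 0.05 (-0.57 to 0.68) and 0.08 (-0.25 to 0.41), so the counts allowed changes anywhere inside those intervals.

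The 7SK RNA stood apart from its proteins. RN7SK had 57 counts in siControl against 296 in siKAT7, which is 2.34 and 13.1 CPM, a log2 ratio of 2.47 (2.07 to 2.91), which ranked 25 from the highest of 13217 genes. Relative to HEXIM1 in the same library it was 5.05-fold higher in siKAT7 (3.77 to 6.86), relative to MEPCE 4.98-fold (3.68 to 6.84), relative to HEXIM2 4.27-fold (3.07 to 6.0) and relative to LARP7 7.60-fold (5.02 to 11.5). RN7SK is short and its model spans 328 bases. Genes with models under 1000 bases had a median log2 ratio of 0.18 and 12.1% of them were called higher, whereas genes of 2000 to 4000 bases had -0.02 and 3.47%, and those of 8000 bases or more -0.07 and 1.66%. The part of transcript length in the RN7SK ratio, and in the ratios of the long genes CDK12 (8287 bases) and CDK13 (9525 bases), was not tested. A selection of poly(A) RNA was neither stated nor denied in the labels, and 7SK, a product of RNA polymerase III, carries no long poly(A) tail.

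Around these genes, 87 further genes of elongation control were grouped in 7 lists, and 85 of them reached 1 CPM. None was called higher and 1 was called lower (1.18%, against 3.91% over all genes), and their median log2 ratio was -0.08. Under total-count scaling 0 were higher and 3 lower, where 2.68% of all genes were called higher and 6.37% lower. The 1 called gene was ERCC4, a repair nuclease with 43.76 and 23.49 expected counts and a log2 ratio of -0.82 (-1.63 to -0.07), too few counts for the rule on named genes and named after its values were seen. Of the 63 list genes at 10 CPM or more, 0 were called, and so were 0 of the 6 members at that level. Of all 7834 such genes 2.16% were called, 1.39% as higher and 0.766% as lower.

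The list of the super elongation complex, which carries P-TEFb to genes, and of other factors that recruit the kinase had 0 of 10 measured genes called and a median log2 ratio of 0.04, or -0.07 under total-count scaling. The complex member MLLT1 had 83.2 and 84.5 CPM (0.02, or -0.09 under total-count scaling), and the elongation factor ELL had 58.6 and 65.1 CPM (0.15). The pausing factors DSIF and NELF, substrates of P-TEFb, had 0 of 6 called and a median of 0.0044, which was -0.10 under total-count scaling and -0.0053 with DESeq2 size factors. SUPT5H, the large DSIF subunit, had a log2 ratio of 0.10 (0.04 to 0.16), or -0.0038 under total-count scaling, and the NELF subunit NELFB had -0.07 (-0.13 to -0.01). None of the subunits reached 1.5-fold in either direction.

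Factors that travel with elongating polymerase, the PAF1 complex, SPT6, FACT and TFIIS, had 0 of 13 called, with 9 below 0 and a median of -0.11. Their intervals lay above 0 for 2 genes and below it for 4. Over all genes, 49.3% of the ratios were above 0. PAF1 had 88.7 and 110 CPM (0.30, interval 0.22 to 0.39), and the FACT subunit SSRP1 had 177 and 157 CPM (-0.17, interval -0.23 to -0.10). The other transcriptional kinases and cyclins, those of TFIIH and Mediator among them, had 0 of 14 called and a median of -0.04, or 0.0045 with upper-quartile factors. CDK11B had 88.9 and 91.5 CPM (0.04, or -0.07 under total-count scaling) and CCNL2, a cyclin of the CDK11 kinases, 57.1 and 50.8 CPM (-0.17). The phosphatase list had 0 of 16 called and a median of -0.08, with PPM1G, known to release P-TEFb from 7SK, at 268 and 243 CPM (-0.14, interval -0.19 to -0.09).

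Other proteins that bind 7SK or release P-TEFb had 0 of 13 called, 10 below 0 and a median of -0.12. The interval lay above 0 for 3 of these genes and below it for 6. TRIM28, which tethers the 7SK particle at promoters, had 847 and 706 CPM (-0.26, interval -0.29 to -0.23), and HNRNPA1, which binds 7SK free of HEXIM, had 394 and 384 CPM (-0.04, or 0.0067 with upper-quartile factors). DNA damage response genes, a class known to need CDK12 for full-length transcripts, had 0 of 13 higher and 1 lower (ERCC4). Of the 13, 11 were below 0, and the median was -0.12. The interval lay below 0 for only 2 of them, ERCC4 and MDC1. ATM, ATR and TP53BP1 have models of 8000 bases or more, a class with a median of -0.07 over all genes. The part of transcript length in this list was not tested. MDC1 had 103 and 88.2 CPM (-0.23, interval -0.31 to -0.14).

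**Figure D4:**
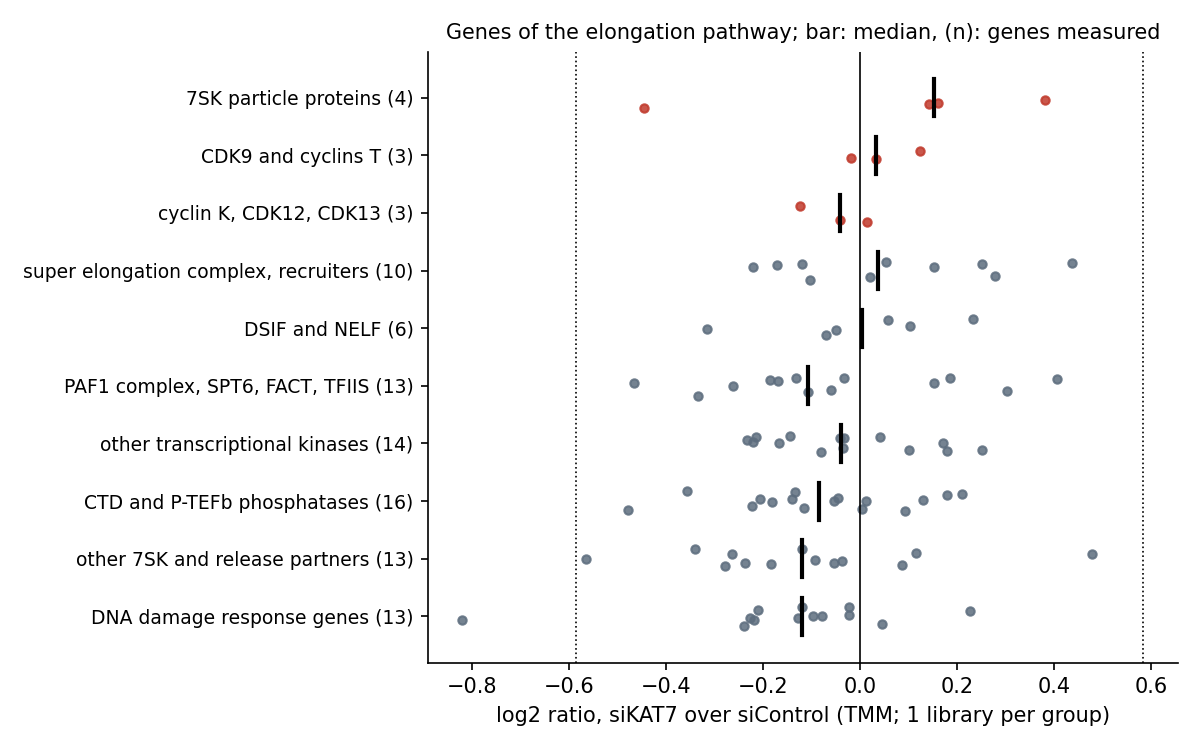
Log2 ratio of siKAT7 over siControl for each measured gene of the 3 member groups (red) and of the 7 pathway lists (grey), with the median of each group as a bar and 1.5-fold as dotted lines. Group medians lie between -0.12 and 0.15, and ERCC4, at -0.82, is the single point beyond the dotted lines.

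In the authors' deposited table, which compares these 2 libraries and not the conditions, none of the 10 genes carries the table's own mark of significance. The rule behind the mark is not stated, and the genes that carry it in the authors' deposited table have log2 folds of at least 1.005 in size. Its log2 folds are -0.56 for LARP7, 0.28 for HEXIM2 and -0.23 for CDK12. The adjusted p-values printed there, in the authors' deposited table, are 0.0271 for LARP7, 0.0281 for CDK12 and 0.0498 for HEXIM2. For CCNK the authors' deposited table gives -0.09 as log2 fold, with an adjusted p-value of 0.0847, and HEXIM1 and CDK9 have folds of 1.03 and 1.01.

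HEXIM1 (ENSG00000186834) lies on chromosome 17 at 45148502 to 45152101 of GRCh38 and HEXIM2 (ENSG00000168517) at 45160700 to 45170040, both on the forward strand in GENCODE 29. LARP7 (ENSG00000174720) lies on chromosome 4 at 112636964 to 112657592, MEPCE (ENSG00000146834) on chromosome 7 at 100428790 to 100434126 and CDK9 (ENSG00000136807) on chromosome 9 at 127785679 to 127790787. CCNT1 (ENSG00000129315), on chromosome 12 at 48688458 to 48716998, is the 1 gene of the 10 on the reverse strand. CCNT2 (ENSG00000082258) lies on chromosome 2 at 134918235 to 134959342 and CCNK (ENSG00000090061) on chromosome 14 at 99481169 to 99535044. CDK12 (ENSG00000167258) lies on chromosome 17 at 39461511 to 39564907 and CDK13 (ENSG00000065883) on chromosome 7 at 39949646 to 40099580. All 10 are annotated as protein-coding.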

How the data were processed

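The authors deposited expected counts for each gene. The submitters' processing notes name RSEM 1.3.3 and GRCh38.p13, and no aligner or annotation release was given in the sources used here. Of 60954 rows, 331 unnamed assembled loci (1.11% and 1.67% of all counts) were left out. Both count columns stand in the table again with 0 differing cells, and each was used as 1 library. The authors' deposited comparison table gives a ratio (fold), its log2, p-values and a mark of significance, made with a tool not named in the labels or the table.

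Expected counts were rounded and scaled with the TMM factors of edgeR 4.0.16 in R 4.3.3 (1.04 and 0.964). Log2 ratios used a prior count of 0.5. Clopper-Pearson 95% intervals came from the split of each gene's counts (SciPy 1.17.1), and paralogue ratios had exact conditional intervals. The intervals cover counting error only and treat each read as independent. Reads without molecular identifiers can be PCR copies, so the intervals may be too narrow even for that. Genes whose mean reached 1 CPM were kept. No test of the treatment is possible with 1 library per group. The procedure was tested on simulated counts. The alternatives were total-count scaling, DESeq2 1.42.0 size factors, upper-quartile factors, library sizes with the unnamed loci, a prior count of 5, other folds and filters, the authors' folds and, chosen after seeing the data, sums with overlapping genes.

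The members and gene lists were chosen with earlier results of these data known. Named were the 10 members, KAT7, RN7SK and, per list, up to 6 called genes with at least 100 counts and up to 3 others of the highest level. Some of these are not reported here.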

Additional observations from a re-analysis of the deposited data

How the results depend on the processing

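Total-count scaling shifted log2 ratios by a median of -0.11, DESeq2 size factors by -0.01, upper-quartile factors by 0.04 and library sizes with the unnamed loci by -0.0019. Of the 10 genes, 6 lay above 0 with TMM, 4 with total-count scaling and 8 with upper-quartile factors. Under total-count scaling, and likewise in the authors' deposited table, HEXIM1 was at 0.036, CDK9 at 0.017 and CCNK at -0.093, outside their counting intervals. The DSIF and NELF median was -0.10 under total-count scaling. The number of the 10 genes called was 0 in each direction under every alternative but the lowest fold threshold, under which HEXIM2 counted as higher (1) and LARP7 as lower (1). Over all genes, 518 were higher and 517 lower. These numbers were 355 and 843 under total-count scaling, 1341 and 1436 at the lowest fold threshold, 179 and 144 at 2-fold, 1008 and 985 with no filter, and 109 and 60 among genes of 10 CPM or more. The other 138 of 156 alternative values stayed within the counting interval or within 1.5 times the count. For group medians the range used was the median of the genes' interval ends, which is wide and not a counting interval of the median. The median of the 10 genes thus counted as unmoved although it went from 0.02 to -0.08 under total-count scaling. The depth limits CCNT2, LARP7 and CCNT1 most, with intervals 1.06, 0.830 and 0.637 wide on the log2 scale. No paired analysis was possible because each group has 1 library.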

Other observations

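Several list genes, singled out after their values were seen, had some of the larger ratios of their lists without reaching 1.5-fold. JMJD6, an oxygenase tied to the release of P-TEFb from 7SK, had 2698 expected counts in siControl against 3502.95 in siKAT7, a log2 ratio of 0.48 (0.41 to 0.55). The splicing factors SRSF1 and SRSF2, members of a family that associates with 7SK, had log2 ratios of -0.57 (-0.73 to -0.40) and -0.34 (-0.42 to -0.26). Under total-count scaling SRSF1 passed 1.5-fold, at -0.67, as did RPRD1A, at -0.59. RPRD1A, a protein that binds the polymerase tail, had 534 and 357 counts (-0.48, interval -0.68 to -0.28), and SETD2, the methyltransferase of elongating chromatin, had 224 and 151 (-0.47, interval -0.77 to -0.16). The FACT subunit SUPT16H had 443 and 547 counts (0.41, interval 0.22 to 0.59), while its partner SSRP1 had a log2 ratio of -0.17, so the subunits of this heterodimer lay on opposite sides of 0.

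Within-library ratios of a further 2 pairs were taken after the values were seen. The ratio of LARP7 to MEPCE, the proteins that stay bound to 7SK, was 0.656-fold in siKAT7 relative to siControl (interval 0.483 to 0.886). The ratio of HEXIM1 to CDK9 was 1.01-fold (0.934 to 1.10).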
